A study of Mus musculus with 3 samples.

Results

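*Auts2*, *Dlg2*, *Macrod2*, *Il1rapl2*, *Ncam2* and *Ccser1* are 6 of the 56980 genes counted in each of 3 mouse bone marrow libraries, and were found there by symbol. They share a very long genomic span and are best known from the nervous system, and they had been picked because earlier values of these same libraries showed them changed in cells with stem cell transcripts. Their differences between libraries are therefore a description and not evidence, and no difference was tested, since each condition was 1 library. The working name, long neural-type genes changed in stem cells, held only in part. In cells with a transcript of both *Cd34* and *Adgrl4*, called Cd34 Adgrl4 cells from here on, *Ccser1*, *Dlg2* and *Il1rapl2* were between 3.6-fold and 5.7-fold lower after irradiation, *Auts2* was lower by less than 2-fold, *Macrod2* was at 0.838 of the Control level (95% interval 0.753 to 0.932), and *Ncam2* rested on 13 to 46 molecules per library.

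Bone marrow nucleated cells (BMNCs) came from flushed femurs of C57BL/6 male mice with no genetic change named in the sources. The Control group received no irradiation, the IR group received 6.0 Gy of Cobalt-60 gamma-irradiation and solvent, and the IR+CBD group received cannabidiol, a non-intoxicating cannabis compound, by intraperitoneal injection before and after the same irradiation. The dose of the third group stands in the study's design text and not in its own label, and the age of the mice used for these libraries was not given in the sources used here. At day 14, Lin-Kit+, Lin-Kit- and Lin+ cells of 3 mice per group were sorted, remixed at 5:4:1 and loaded as 1 droplet library, so a share of cells refers to that mix and the spread between mice cannot be seen.

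Hematopoietic stem cells renew themselves and give rise to every blood lineage through progenitors of narrowing fate. Droplet sequencing counts unique molecular identifiers (UMIs), 1 for each captured RNA molecule. Of the 6 genes, *Auts2* encodes a transcription regulator that joins a noncanonical Polycomb complex, *Macrod2* an enzyme that removes ADP-ribose from proteins, and *Dlg2* a membrane-associated scaffold of the synapse (PSD-93). *Il1rapl2* encodes a receptor of the interleukin-1 receptor family, *Ncam2* an immunoglobulin-type cell adhesion molecule, and *Ccser1* a coiled-coil, serine-rich protein of little known function. Long genes of this kind keep most of their length in introns, and their primary transcripts are therefore far longer than the mature RNA.

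In the GENCODE M21 annotation of GRCm38, *Auts2* lies on the minus strand at chr5:131437333-132543344, a span of 1106 kb. *Dlg2* spans 1973 kb at chr7:90476672-92449247, *Macrod2* 1998 kb at chr2:140395309-142392966, *Il1rapl2* 1276 kb at chrX:137570608-138846946, *Ccser1* 1203 kb at chr6:61180324-62382865 and *Ncam2* 426 kb at chr16:81200697-81626828, all on the plus strand. Among 21871 coding genes with a median span of 17.5 kb, *Macrod2* ranked 7 by span, *Dlg2* 8, *Il1rapl2* 23, *Ccser1* 30, *Auts2* 40 and *Ncam2* 309. Exons cover between 0.368% of the span, in *Il1rapl2*, and 2.66%, in *Ncam2*, against a median of 20.4% over coding genes. The counts do not separate exonic from intronic reads. The matrix headers name Cell Ranger 7.0.1, a version that counts intronic reads unless told otherwise, and the study's methods name version 4.0. Genes inside the spans can take reads from their hosts: 22 of 25 annotated genes that overlap *Auts2* and 22 of 27 that overlap *Dlg2* are on the same strand. *Flrt3* lies within *Macrod2* and *Tex13a* within *Il1rapl2*, both on the opposite strand. Without a stated strand setting, reads of overlapping genes cannot be told apart.

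RefSeq start sites on GRCm38.p6 were found for 5 of the 6 genes, and the stretch before the start is shown for the 3 genes that were lower than Control after irradiation by the 2-fold rule given below and in every alternative tried. The sequences run 5′ to 3′ on the plus strand and end before the first base annotated as an exon, and capitals mark CG dinucleotides, the sites at which DNA is methylated.
Ccser1, chr6:61180075-61180323: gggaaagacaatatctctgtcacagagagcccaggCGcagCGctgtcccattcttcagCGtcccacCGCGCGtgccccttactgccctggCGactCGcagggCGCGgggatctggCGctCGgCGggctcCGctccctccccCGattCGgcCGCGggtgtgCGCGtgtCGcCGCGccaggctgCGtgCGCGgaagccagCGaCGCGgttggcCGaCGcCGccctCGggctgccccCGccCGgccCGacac
Il1rapl2, chrX:137570504-137570607: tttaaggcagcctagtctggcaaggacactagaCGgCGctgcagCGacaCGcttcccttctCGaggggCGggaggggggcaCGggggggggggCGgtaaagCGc
Dlg2, an internal start at chr7:92062144-92062393: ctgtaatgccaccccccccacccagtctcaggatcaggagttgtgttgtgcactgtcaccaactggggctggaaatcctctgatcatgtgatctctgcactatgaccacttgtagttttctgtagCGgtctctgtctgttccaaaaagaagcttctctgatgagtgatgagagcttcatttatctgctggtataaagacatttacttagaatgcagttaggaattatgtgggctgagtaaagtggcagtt
The *Ccser1* start lay in a CpG-rich stretch, with 36 CG dinucleotides in the 250 bases before it, against a median of 6 in 32851 start sites. *Ncam2* had 32, *Macrod2* 29 and 30 at its 2 listed starts and *Il1rapl2* 14. The 3 listed *Dlg2* starts had 3, 1 and 2. The 250-base windows count back from the RefSeq start and can include bases that GENCODE annotates as exon. These were 146 bases for *Il1rapl2* and 126 and 121 for *Macrod2*. Before the first exonic base *Il1rapl2* had 9 CG dinucleotides, *Macrod2* 14 and 15 and the *Dlg2* starts 1, 1 and 2. These windows thus differed widely in base composition among genes that moved the same way. Motifs of blood transcription factors and the TATA box were searched on both strands of the 250 bases. The letters AGATAA stood for the GATA family and were present in 9.99% of all windows, CCGGAAG stood for the ETS family (6.91%), TGTGGTT for the RUNX family (4.40%), TATAAA for the TATA box (12.4%), and TTACGTAA (0.113%) and TTATGTAA (0.819%) for the PAR bZIP family, to which the product of *Hlf* belongs. None of the 6 was found before the *Ccser1*, *Il1rapl2*, *Ncam2* or *Macrod2* starts. The *Dlg2* start printed above held the GATA and TATA letters, the start at chr7:91090536-91090785 held the RUNX letters, and the start at chr7:92234720-92234969 held the GATA letters. A match is a string of letters and not a site of binding.

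After removal of cells with under 200 detected genes or over 5% mitochondrial UMIs, 10674 Control, 10345 IR and 10273 IR+CBD cells were kept of 36035 barcodes in all, with medians of 12480, 14211 and 12502 UMIs. Between 35 and 51 cell barcodes were shared by any 2 libraries and 0 by all 3. The Cd34 Adgrl4 cells were 3116, 1952 and 1970, or 29.2%, 18.9% and 19.2% of the cells kept, with medians of 27462, 32784 and 26468 UMIs, and cells of low depth could pass this gate less easily. The gate held stem cells and many committed progenitors: 69.0%, 87.4% and 83.4% of its Control, IR and IR+CBD cells also had 5 or more UMIs of *Mpo*, a granule enzyme of myeloid cells. Levels are given as summed UMIs per 1000000 UMIs of the same cells (CPM), in the order Control, IR, IR+CBD wherever 3 values stand together. Transcripts of *Hlf*, a transcription factor of stem cells, were at 49.3, 21.5 and 27.7 CPM. All 14 stem and early progenitor markers were detected in each library, at 694, 629 and 651 summed CPM. This sum does not show equal stem cell content, since its markers moved in both directions. *Cd48*, whose protein is absent from stem cells by the study's definition, alone gave 184, 212 and 191 CPM of it. In IR over Control, 3 markers were at least 2-fold lower, *Hlf* (0.437), *Fgd5* (0.239) and *Esam* (0.473), and 1 was higher, *Ly6a* (2.26). The 10 neuron and glia markers summed to 2.75, 2.80 and 2.68 CPM, with *Rbfox3* at 0 in IR and *Rbfox3*, *Snap25* and *Sox10* at 0 in IR+CBD. All 10 endothelial markers were detected, at 209, 193 and 194 summed CPM, most of it from *Pecam1* (116, 119 and 117 CPM) and *Egfl7* (83.2, 68.3 and 71.0 CPM), which blood progenitors are also known to express, while the defining endothelial gene *Cdh5* had 15, 10 and 5 UMIs. The 8 stromal markers summed to 11.1, 6.28 and 7.87 CPM, with *Pdgfra* and *Bglap* at 0 in IR+CBD.

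*Ccser1* had the lowest ratio of IR over Control among the members. In Cd34 Adgrl4 cells the Control level was 25.8 CPM (95% Poisson interval 24.8 to 26.9, 2453 UMIs), the IR level 4.55 (4.06 to 5.10, 306 UMIs) and the IR+CBD level 5.26 (4.68 to 5.90, 293 UMIs). The Control library was high and both irradiated libraries were low and close to each other. The IR over Control ratio was 0.176 (0.156 to 0.199), and the IR+CBD over IR ratio was 1.16 with an interval that includes 1 (0.982 to 1.36). All intervals of CPM, shares and ratios cover counting error only and not the spread between mice. The share of cells with a *Ccser1* UMI was 27.1% (95% Clopper-Pearson interval 25.5 to 28.7), 7.17% (6.07 to 8.41) and 6.95% (5.87 to 8.17), and with each cell thinned to 2000 UMIs it was 6.97%, 1.13% and 1.37%. For background, cells with 2 or more UMIs of the B cell gene *Cd79a* had shares of 2.33%, 1.01% and 0.723% at medians of only 4042, 3852 and 3416 UMIs.

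The level of *Ccser1* was highest in cells with *Dntt* and *Flt3* transcripts, genes of lymphoid-primed progenitors. There the 3 libraries stood at 70.4, 24.8 and 24.9 CPM, and IR over Control was 0.352 (0.298 to 0.414). In cells with 5 or more *Mpo* UMIs the levels were 7.34, 1.39 and 1.44 CPM, and the same ratio was 0.189 (0.156 to 0.228). In cells with 2 or more UMIs of the erythroid factor *Klf1* it was at 1.48, 0.410 and 0.208 CPM, and in *Cd79a* cells at 5.44, 2.58 and 1.55. *Ccser1* was thus lower in IR than in Control in each of these 5 gates, while in cells that passed no gate it stood at 3.52 and 3.76 CPM (ratio 1.07, 0.787 to 1.45). The gates share cells. In Control, 793 of 1033 Dntt Flt3 cells and 2149 of 3227 *Mpo* cells were also Cd34 Adgrl4 cells. So were 48 of 586 *Klf1* cells and 218 of 3524 *Cd79a* cells. *Siglech* is a gene of plasmacytoid dendritic cells. Among cells with 3 or more of its UMIs, the 273 Control cells held 14 *Ccser1* UMIs. The 46 IR cells held 0, which allows up to 4.87 CPM, and the 79 IR+CBD cells held 0, which allows up to 3.58 CPM. The limit for IR lies above the Control level, so no fall in IR can be read there.

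**Figure D1:**
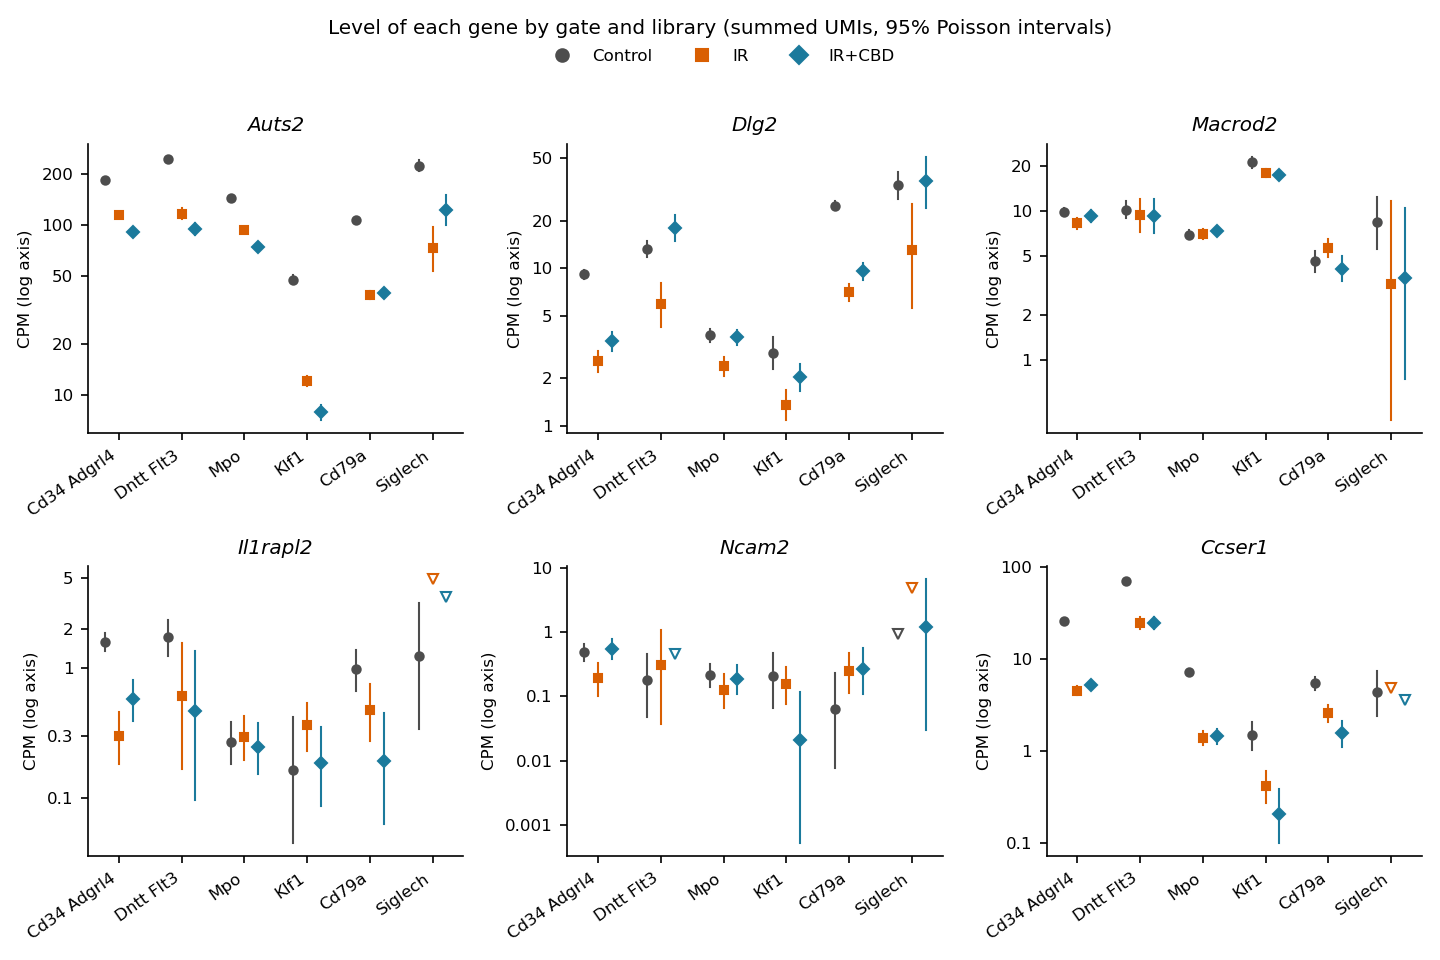
Level of each of the 6 genes (CPM of summed UMIs, log axis) in 6 gates, with 1 point per library, 95% Poisson intervals as bars and open triangles at the limit that 3 counts allow where no UMI was seen. *Ccser1* in Cd34 Adgrl4 cells stood at 25.8 CPM for Control against 4.55 and 5.26 for the irradiated libraries, and *Macrod2* at 9.86, 8.26 and 9.25.

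*Il1rapl2* was rare but followed the same pattern after irradiation. Its 153, 20 and 32 UMIs in Cd34 Adgrl4 cells came from 65, 18 and 21 cells, or 1.61, 0.298 and 0.575 CPM. The IR over Control ratio was 0.185 (0.110 to 0.295), and the IR+CBD over IR ratio was 1.93 (1.07 to 3.56), so the IR+CBD library lay between the other two. One Control cell held 27 of the UMIs, and without the top cell of each library the ratios were 0.191 and 1.704. In *Mpo* cells, in contrast, *Il1rapl2* was at 0.270, 0.297 and 0.248 CPM, and IR over Control was 1.10 (0.632 to 1.903). Within Cd34 Adgrl4 cells with under 5 *Mpo* UMIs it was at 7.88, 0.519 and 2.68 CPM, from 129, 3 and 17 UMIs.

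*Dlg2* was low in both irradiated libraries. Its levels in Cd34 Adgrl4 cells were 9.14 CPM (8.54 to 9.77, 868 UMIs), 2.56 CPM (2.19 to 2.97, 172 UMIs) and 3.43 CPM (2.96 to 3.96, 191 UMIs). The IR over Control ratio was 0.280 (0.236 to 0.330) and the IR+CBD over IR ratio 1.34 (1.08 to 1.66). A single Control cell held 109 UMIs, and without the top cell of each library the ratios were 0.304 and 1.36. Shares of cells with a UMI were 11.1%, 5.69% and 6.14%, against 4.85%, 2.66% and 2.56% at medians of 8302, 10127 and 8786 UMIs in cells that passed no gate. In gate cells thinned to 2000 UMIs the shares were 2.02%, 0.769% and 0.558%, so the small excess of IR+CBD over IR in level and share did not appear in the thinned shares. Of the 22 same-strand genes that overlap *Dlg2*, 15 had a UMI in any cell kept, and they had 41, 12 and 6 UMIs in Cd34 Adgrl4 cells. *Dlg2* was also lower in IR than in Control in *Cd79a* cells, at 25.0, 7.06 and 9.54 CPM. In Dntt Flt3 cells it was at 13.2, 5.94 and 18.03 CPM and in *Siglech* cells at 33.6, 13.0 and 35.8 CPM, so in these 2 gates the IR library was low and the IR+CBD library was at or above the Control level. The IR+CBD over IR ratios were 3.04 (2.10 to 4.49) in the first and 2.75 (1.23 to 6.95) in the second, the latter from 8 and 30 UMIs.

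*Auts2* descended from Control to IR to IR+CBD. Its levels in Cd34 Adgrl4 cells were 182 CPM (180 to 185, 17315 UMIs), 115 CPM (113 to 118, 7729 UMIs) and 90.3 CPM (87.8 to 92.8, 5025 UMIs). IR over Control was 0.631 (0.614 to 0.648), IR+CBD over IR was 0.785 (0.757 to 0.813) and IR+CBD over Control was 0.495 (0.480 to 0.511). The share of cells with a UMI descended in the same order, 49.7%, 38.8% and 31.5%, and in thinned cells 20.8%, 11.8% and 9.65%, against unthinned shares of 10.6%, 4.98% and 5.08% in cells that passed no gate. *Mpo* cells followed with 145, 93.2 and 73.8 CPM, and Dntt Flt3 cells with 244, 116 and 94.98 CPM. Among the 6 gates the lowest IR over Control ratio was that of *Klf1* cells, at 47.6, 12.1 and 7.92 CPM, with 0.255 (0.233 to 0.280). *Siglech* cells departed from this order, at 223, 73.1 and 123 CPM. The 22 same-strand transcripts annotated within *Auts2* had 2453, 1024 and 730 UMIs in Cd34 Adgrl4 cells, and their summed ratios of 0.590 (0.548 to 0.635) and 0.861 (0.782 to 0.947) lay near those of *Auts2* itself. These transcripts were singled out after their values were seen.

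*Macrod2* had the smallest difference between IR and Control among the members in Cd34 Adgrl4 cells as a whole. Its levels there were 9.86 CPM (9.23 to 10.5, 936 UMIs), 8.26 CPM (7.59 to 8.98, 555 UMIs) and 9.25 CPM (8.47 to 10.1, 515 UMIs). IR over Control was 0.838 (0.753 to 0.932), and it was 0.553 in the Cd34 Adgrl4 cells that passed no other gate and 0.604 in those with under 5 *Mpo* UMIs. The IR+CBD over Control interval includes 1 (0.939, 0.842 to 1.05). A *Macrod2* UMI was seen in 589 of 3116, 410 of 1952 and 369 of 1970 of these cells, against 3.01%, 3.54% and 2.23% of the shallower *Cd79a* cells, and thinned shares were 1.895%, 2.05% and 1.78%. Over all cells the levels were 9.53, 10.2 and 9.86 CPM. *Klf1* cells had 21.3, 18.1 and 17.4 CPM, the highest of the 6 gates, and *Mpo* cells had 6.95, 7.02 and 7.33.

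*Ncam2* was close to the limit of detection. Its 46, 13 and 31 UMIs in Cd34 Adgrl4 cells came from 19, 13 and 12 cells, so the share of cells with a UMI was nearly equal, 0.610%, 0.666% and 0.609%. IR over Control was 0.400 (0.198 to 0.752) and IR+CBD over IR was 2.88 (1.46 to 5.99), but 1 IR+CBD cell held 17 UMIs, and without the top cell of each library these were 0.499 and 1.41. No IR cell in the gate had more than 1 UMI. Over all cells the counts were 86, 76 and 78 UMIs, 29 of the IR UMIs in 1 cell.

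By the rule used for all genes, a log2 ratio of at least 1 in size with 0.5 UMI added and at least 50 UMIs in both libraries together, 4 of the 6 genes were lower in IR than in Control in Cd34 Adgrl4 cells (*Ccser1*, *Il1rapl2*, *Dlg2* and *Ncam2*), against 563 of 16949 genes, or 3.32%. No member was higher, against 0.968% of genes. Since the members had been picked on such values, nothing is read from this count. Their log2 ratios were -2.50 for *Ccser1*, -2.41 for *Il1rapl2*, -1.83 for *Dlg2*, -1.29 for *Ncam2*, -0.66 for *Auts2* and -0.25 for *Macrod2*, with a median of -1.56 against -0.05 over all genes tested. In order from the lowest, these were positions 30, 37, 115, 307, 1252 and 3858. Between IR+CBD and IR, 0 of the 5 members tested passed in either direction, against 0.665% of 15951 genes lower and 0.401% higher. *Ncam2*, with 44 UMIs in the 2 libraries, was just under the minimum, while *Il1rapl2*, with 52, was just above it. The log2 ratios were -0.35 for *Auts2*, 0.42 for *Dlg2*, 0.16 for *Macrod2*, 0.94 for *Il1rapl2* and 0.21 for *Ccser1*. Between IR+CBD and Control, *Auts2*, *Dlg2*, *Il1rapl2* and *Ccser1* were lower, against 2.44% of 16815 genes lower and 0.607% higher, at log2 ratios of -1.01, -1.41, -1.47 and -2.29, while *Macrod2* was at -0.09 and *Ncam2* at 0.21. The comparisons share libraries and are not independent of each other.

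The members were not spread over cells in one way. *Auts2* molecules were concentrated in few cells. Cells with 10 or more *Auts2* UMIs were 16.1%, 9.58% and 6.24% of Cd34 Adgrl4 cells, and in Control they held 78.5% of its UMIs, with up to 203 UMIs in 1 cell. Its variance over cells divided by its mean was 34.0, 39.6 and 38.2, against medians of 3.96, 2.34 and 1.98 for the 487, 705 and 899 genes with a similar mean. Genes of that mean were seen in a median of 92.4%, 92.1% and 83.2% of cells. *Ccser1* had ratios of variance to mean of 4.51, 3.71 and 3.94, against medians of 1.48, 1.16 and 1.16. *Dlg2* stood at 17.5, 2.59 and 2.48, with the Control value set largely by the cell of 109 UMIs, and *Macrod2* at 2.34, 1.501 and 2.01 was the most even of these 4 genes.

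**Figure D2:**
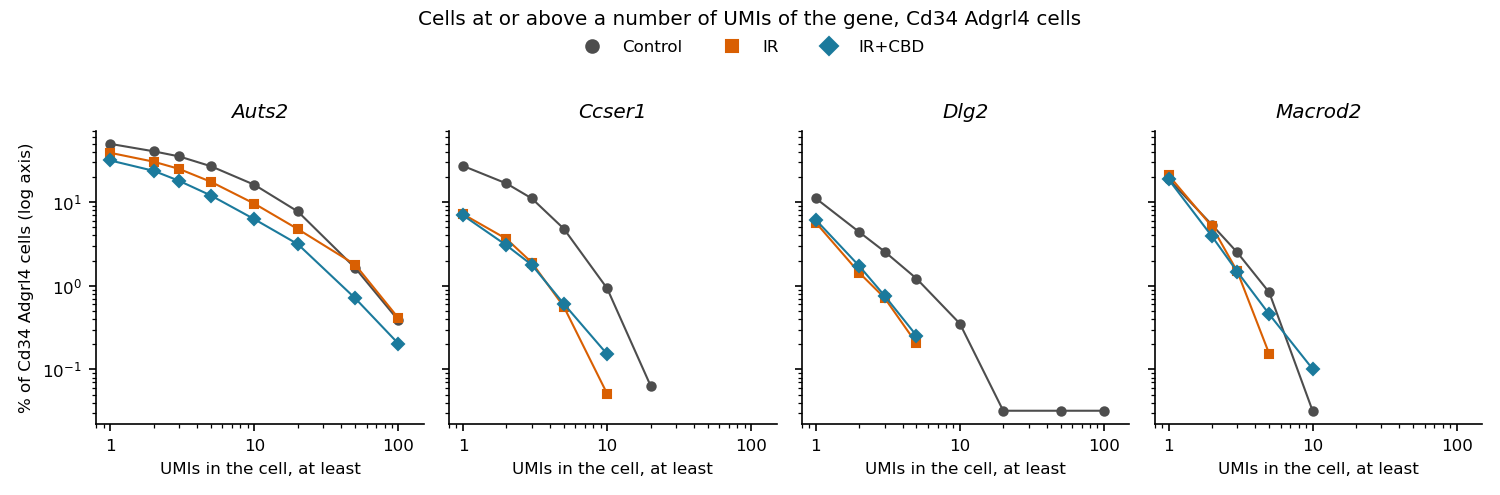
Share of Cd34 Adgrl4 cells (%, log axis) with at least a given number of UMIs (log axis) of *Auts2*, *Ccser1*, *Dlg2* and *Macrod2*, 1 line per library. The *Auts2* lines reach past 100 UMIs in all 3 libraries, and at 10 UMIs they stand at 16.1%, 9.58% and 6.24% of the cells, while the 3 *Macrod2* lines lie close together up to 2 UMIs.

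Cells rich in a member carried transcripts of different lineages. This comparison of cells, and the basophil, mast cell and eosinophil list and the megakaryocyte list in it, were chosen after values had been seen. Cells with 10 or more *Auts2* UMIs (502, 187 and 123 cells) had 1786, 1926 and 2129 summed CPM of 6 basophil, mast cell and eosinophil genes, against 87.0, 214 and 116 CPM in cells with none. *Ms4a2*, the beta chain of the IgE receptor, was at 108, 142 and 158 CPM against 3.05, 10.0 and 4.77, and *Cpa3*, a mast cell protease, at 357, 484 and 576 against 34.4, 43.6 and 45.5. The 6 myeloid progenitor markers were lower in the *Auts2*-rich cells, at 7047, 8641 and 8829 CPM against 14252, 15545 and 15859.

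Cells with 3 or more *Ccser1* UMIs (345, 37 and 35 cells) had 1141, 1011 and 1217 summed CPM of the 6 lymphoid-primed genes, against 206, 133 and 153 CPM in cells with none. *Dntt*, the polymerase that adds bases at antigen receptor joints, was at 615, 601 and 751 CPM against 69.8, 40.4 and 45.0, and *Flt3*, a cytokine receptor, at 226, 203 and 210 against 44.8, 29.8 and 36.1. The stem and early progenitor markers were also higher in these cells, at 1352, 1558 and 1312 CPM against 566, 584 and 620. The level of these lineage genes in *Ccser1*-rich cells was thus alike in the 3 libraries. Such cells were 11.1%, 1.9% and 1.78% of Cd34 Adgrl4 cells. They were picked by their *Ccser1* UMIs, and whether cell numbers or the level per cell changed was not tested.

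Cells with 3 or more *Dlg2* UMIs (80, 14 and 15 cells) carried megakaryocyte transcripts, and most so in Control. *Pf4*, a platelet chemokine, was at 1967, 724 and 371 CPM, against 5.04, 4.03 and 5.76 in cells with none, and 6 megakaryocyte genes summed to 2373, 936 and 492 CPM against 24.1, 20.7 and 26.4. The stem and early progenitor markers were also higher in these cells, at 1601, 2027 and 863 summed CPM against 659, 612 and 648. In IR+CBD these cells also had *Dntt* at 516 CPM against 67.2. Cells with 2 or more *Macrod2* UMIs (167, 100 and 77 cells) carried erythroid transcripts: *Car1*, a carbonic anhydrase of early erythroid cells, was at 465, 338 and 344 CPM against 30.1, 68.1 and 54.9, and *Klf1* at 21.3, 29.6 and 28.2 against 2.56, 7.55 and 4.17. In Control they carried as much of the megakaryocyte list as of the erythroid list, at 572.5 and 554 summed CPM, and the megakaryocyte list stood at 45.6 in IR and 53.6 in IR+CBD, against 39.2, 27.9 and 29.6 in cells with none. The 65 Control cells with an *Il1rapl2* UMI had 1194 summed CPM of stem and early progenitor markers against 685, at a lower median depth of 14771 against 27646 UMIs. The same sums were 524 against 630.5 CPM for the 18 IR cells and 897 against 648.5 CPM for the 21 IR+CBD cells, so the IR cells with *Il1rapl2* were not above the rest.

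**Figure D3:**
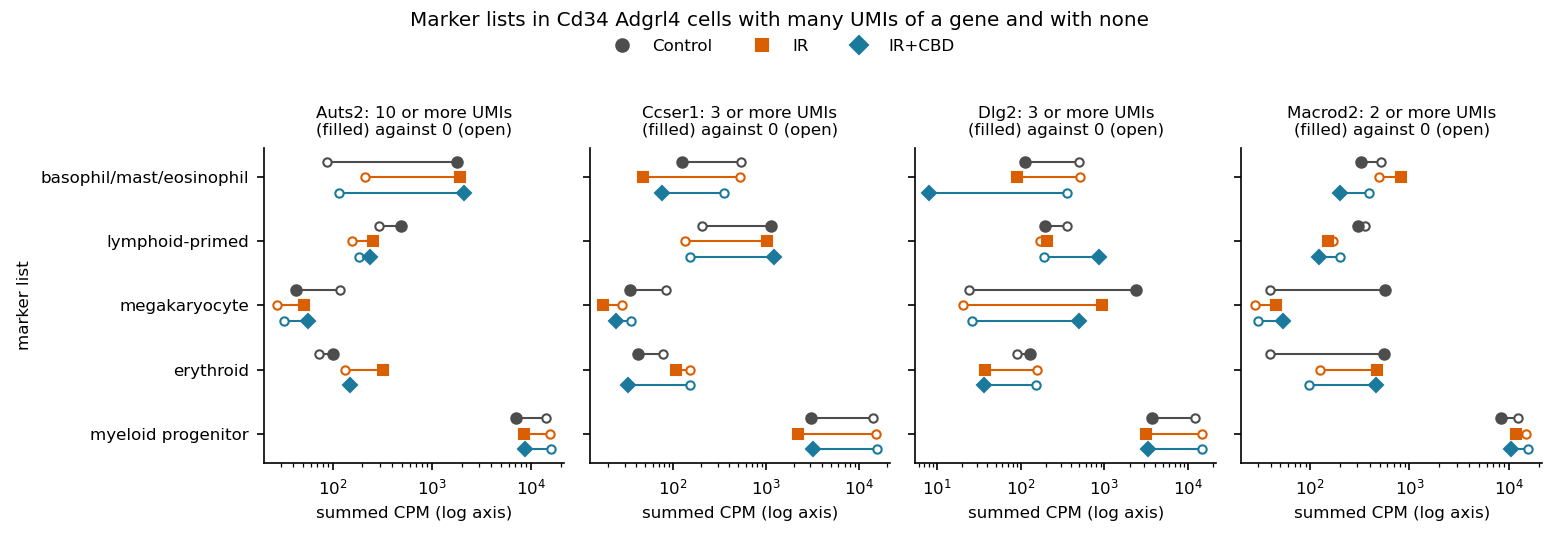
Summed CPM (log axis) of 5 marker lists in Cd34 Adgrl4 cells with many UMIs of *Auts2*, *Ccser1*, *Dlg2* or *Macrod2* (filled symbols, minimum given above each panel) and with none (open circles), 1 line per library. The filled symbols stand to the right for the basophil, mast cell and eosinophil list with *Auts2* (1786 against 87.0 CPM in Control), the lymphoid-primed list with *Ccser1* (1141 against 206) and the megakaryocyte list with *Dlg2* (2373 against 24.1).

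The same lineage genes differed between the gates of the 3 libraries. In Cd34 Adgrl4 cells the lymphoid-primed list summed to 341, 171 and 191 CPM, the megakaryocyte list to 82.5, 28.6 and 34.0 CPM, the erythroid list to 89.5, 162 and 148 CPM, and the basophil, mast cell and eosinophil list to 460, 508 and 338 CPM. The first pair was lower after irradiation and the erythroid list was higher. The levels of the members were therefore also read in cells with and without a transcript of such a gene.

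*Ccser1* was lower after irradiation both with and without *Dntt*. In Cd34 Adgrl4 cells with a *Dntt* UMI the levels were 72.3, 21.5 and 27.2 CPM (IR over Control 0.297, 0.251 to 0.350), and in those without it 12.1, 2.46 and 2.76 CPM (0.204, 0.170 to 0.243). The *Dlg2* ratio was 0.362 (0.299 to 0.435) in cells with under 3 *Pf4* UMIs, at 6.03, 2.18 and 3.22 CPM, and 0.190 (0.123 to 0.282) in the 56, 21 and 23 cells with more, at 185, 35.2 and 23.7 CPM. *Auts2* in cells with an *Ms4a2* UMI was at 791, 549 and 556 CPM, so that IR over Control was 0.694 (0.665 to 0.724) and IR+CBD over IR was 1.01 (0.959 to 1.07), and the lower level in IR+CBD than in IR was absent there. In cells without *Ms4a2* it was at 130, 72.0 and 54.9 CPM, with ratios of 0.554 and 0.763.

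Reading by *Hlf* gave a similar picture for *Ccser1* and a different one for *Auts2* and *Dlg2*. Cells with an *Hlf* UMI were 49.3%, 30.9% and 34.3% of Cd34 Adgrl4 cells. How far this and the lineage lists take part in the falls was not tested beyond the values within these classes of cells. *Ccser1* rose with *Hlf* in every library, from 12.7, 2.94 and 2.77 CPM with no *Hlf* UMI to 63.7, 16.1 and 18.3 CPM with 3 or more, and the IR over Control ratio was 0.232 (0.191 to 0.280) in the first and 0.253 (0.199 to 0.318) in the second. *Il1rapl2* in cells with 3 or more *Hlf* UMIs had 72, 2 and 13 UMIs. *Auts2* had ratios of 0.548 (0.528 to 0.569) with no *Hlf* UMI and 0.903 (0.841 to 0.9698) with 3 or more, where the levels were 222, 201 and 74.9 CPM and the IR+CBD over IR ratio was 0.373 (0.330 to 0.421). *Dlg2* turned in direction between IR and IR+CBD: the ratio was 2.48 (1.83 to 3.40) with no *Hlf* UMI, at 1.42 and 3.51 CPM, and 0.659 (0.402 to 1.07) with 3 or more, at 9.27 and 6.11 CPM. *Macrod2* was at 7.72, 7.56 and 8.21 CPM with no *Hlf* UMI and at 15.9, 10.1 and 15.1 CPM with 3 or more.

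**Figure D4:**
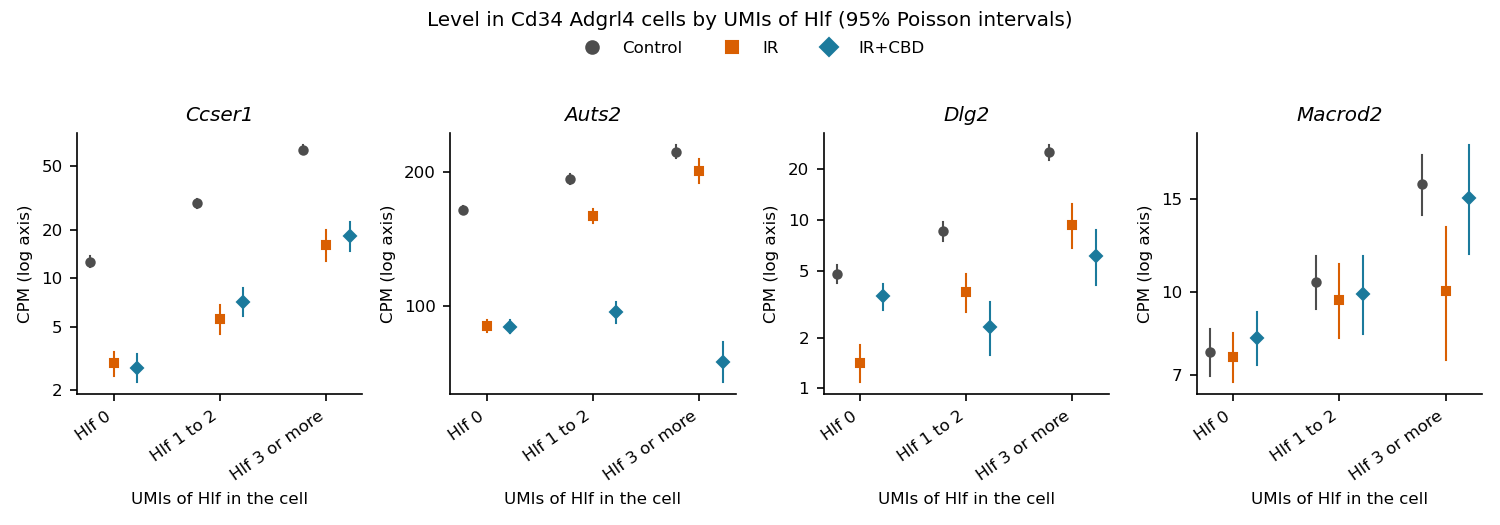
Level (CPM, log axis) of *Ccser1*, *Auts2*, *Dlg2* and *Macrod2* in Cd34 Adgrl4 cells with 0, 1 to 2 and 3 or more UMIs of *Hlf*, 1 point per library with 95% Poisson intervals. *Ccser1* stood lower in IR and IR+CBD than in Control in all 3 classes, and *Auts2* with 3 or more *Hlf* UMIs stood at 222 and 201 CPM in Control and IR and at 74.9 in IR+CBD.

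A second gate, cells with a UMI of both *Hlf* and *Mecom*, another stem cell transcription factor, held 1050, 444 and 524 cells. Of these Hlf Mecom cells, 972, 377 and 436 were also Cd34 Adgrl4 cells, so the 2 gates are not independent. In Hlf Mecom cells 3 members were at least 2-fold lower in IR (*Ccser1*, *Dlg2* and *Il1rapl2*), against 3.33% of 13712 genes. *Ccser1* was at 59.9, 10.3 and 13.6 CPM, *Dlg2* at 26.6, 9.71 and 6.37 CPM and *Il1rapl2* at 4.47, 0.679 and 1.66 CPM. *Auts2* was at 212, 170 and 120 CPM and *Macrod2* at 16.6, 11.4 and 14.2 CPM. *Ncam2* was at 2.21, 2.44 and 3.69 CPM, and IR over Control was 1.10 (0.707 to 1.701), opposite in direction to the Cd34 Adgrl4 cells. Over all cells kept, *Auts2*, *Dlg2*, *Il1rapl2* and *Ccser1* were lower in IR by the rule, against 3.80% of 20226 genes, at 55.6 against 124 CPM, 3.70 against 11.6, 0.371 against 1.11 and 2.33 against 13.6.

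Pairs of members differed in how often they were seen in the same cell, and these shares were not tested. Among Control Cd34 Adgrl4 cells, *Ccser1* had a UMI in 34.7% of cells with *Dlg2* and 26.1% of those without, in 29.5% of cells with *Auts2* and 24.7% of those without, and in 49.2% of the 65 cells with *Il1rapl2* and 26.6% of those without, although the *Il1rapl2* cells were shallower. With *Hlf* the contrast was wider, 39.0% against 15.5%, at medians of 23746 and 30592 UMIs. *Auts2* was seen in 44.8% of cells with *Dlg2* and 50.3% of those without. *Dlg2* was seen in 23.1% of Control cells with *Il1rapl2* and 10.9% of those without, and *Macrod2* in 28.3% of cells with *Dlg2* and 17.7% of those without. Of the 19 Control cells with *Ncam2*, 11 also had *Dlg2*, or 3.18% of cells with *Dlg2* against 0.289% of those without, and in IR+CBD these shares were 3.31% and 0.433%. In IR the *Ccser1* shares were 14.4% with *Dlg2* and 6.74% without, and in IR+CBD 5.79% and 7.03%.

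Classes of longer genes had lower medians and higher shares of genes lower by 2-fold in IR than in Control. In Cd34 Adgrl4 cells the median log2 ratio of IR over Control was -0.01 for 5649 genes under 10 kb, -0.05 for 8811 genes of 10 to 100 kb, -0.15 for 1694 genes of 100 to 500 kb and -0.25 for 134 genes of 500 kb and more. The shares lower by 2-fold were 2.69%, 2.78%, 7.38% and 14.9%. The shares higher by 2-fold were 1.26%, 0.829%, 0.649% and 2.24%, the last from 3 genes. The class of 500 kb and more includes every member but *Ncam2*. *Ccser1*, *Il1rapl2* and *Dlg2*, picked with their changes known, are among its genes lower by 2-fold. The class medians for IR+CBD over IR lay between -0.00 and 0.07. *Ccser1*, *Il1rapl2* and *Dlg2* at -2.50, -2.41 and -1.83 thus lay far below the median of their class, *Auts2* at -0.66 lay below it and *Macrod2*, among the longest of all, lay at it with -0.25.

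**Figure D5:**
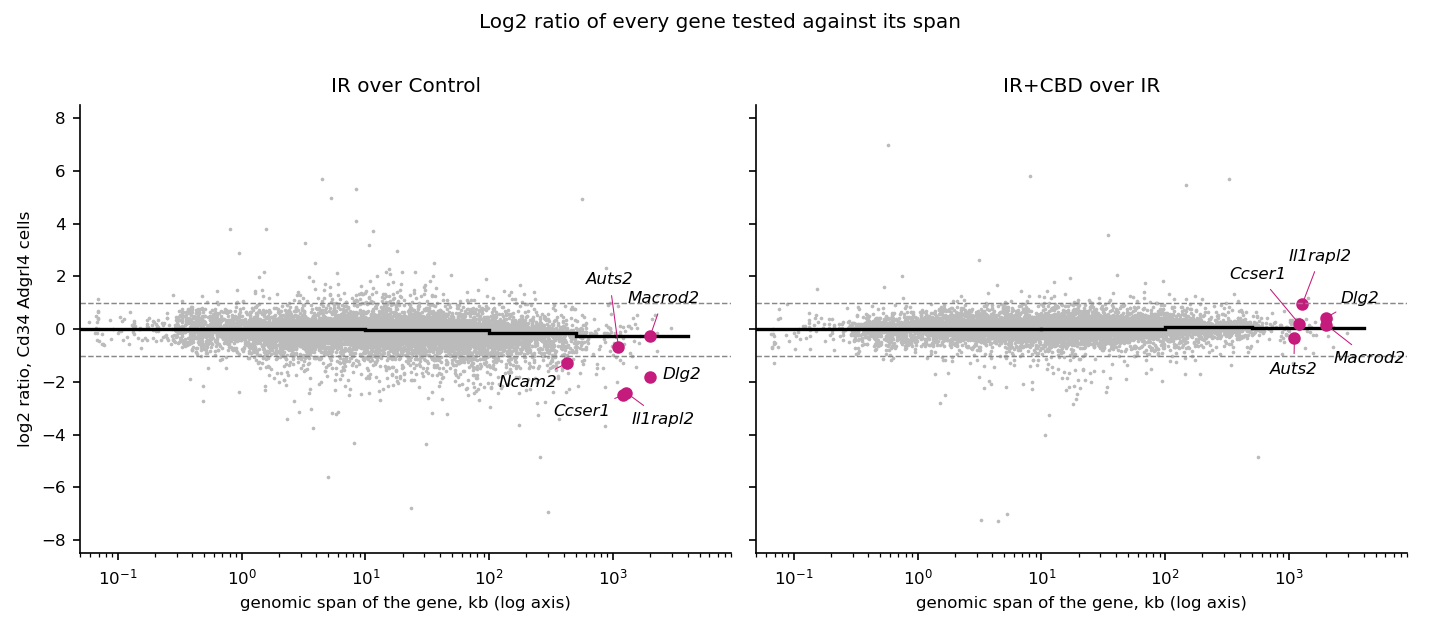
Log2 ratio in Cd34 Adgrl4 cells of every gene tested (grey points) against its genomic span (kb, log axis) for IR over Control and IR+CBD over IR, with the members tested as colored points, black lines at the median of each span class and dashed lines at a 2-fold difference. The class medians step from -0.01 to -0.25 for IR over Control, and *Ccser1*, *Il1rapl2* and *Dlg2* stand well below them.

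Of 68 other long genes of neural type, 39 had enough UMIs. In IR over Control 6 were lower by 2-fold and 3 were higher, against 3.32% and 0.968% of all genes tested. The 39 had a median log2 ratio of -0.19, against -0.05 over all genes. The lower ones were led by *Grm8*, a glutamate receptor, at 0.0725 (0.0261 to 0.163), followed by *Tenm4* at 0.345, *Rbfox1* at 0.353, *Opcml* at 0.431 and *Gpc5* at 0.486, and the sixth was *Robo1* at 0.389, named after its values were seen. The higher ones were *Nalf1*, a subunit of a sodium leak channel, at 30.8 (24.4 to 39.2), *Pcdh9*, a protocadherin, at 5.09 (2.83 to 9.71) and *Cntnap2* at 2.47 (1.73 to 3.55). This list was drawn up with earlier results of these data known, so its mix of directions describes the list only. In IR+CBD over IR, *Nalf1* was at 0.0343 and *Gpc5* at 2.27, and no other of the 30 tested passed the rule.

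Relatives of the members were tested in 10 of 11 cases. Only *Ncam1*, an adhesion molecule like *Ncam2*, was lower by 2-fold, at 11.4, 5.48 and 9.596 CPM, where IR over Control was 0.479 (0.425 to 0.540) and IR+CBD over IR was 1.75 (1.53 to 2.01). Over all genes tested, 3.32% were lower by 2-fold. In all, 9 of the 10 relatives had a log2 ratio of IR over Control under 0, with a median of -0.42 against -0.05 over all genes. *Il1rapl1*, the long relative of *Il1rapl2*, was at 0.534 (0.355 to 0.786), *Dlg3* at 0.632, *Ccser2* at 0.724, *Fbrsl1*, a relative of *Auts2*, at 0.775, and *Macrod1* at 1.04. Of 9 genes listed as partners of AUTS2 or of its Polycomb complex, *Ep300* among them, 0 passed the rule in either direction, with a median of -0.11. *Pcgf5* was at 164, 152 and 148 CPM and *Pcgf3* at 17.1, 14.4 and 14.7.

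The genes most like each member were sought by Pearson correlation of log2(CPM + 1) over 18 points, 6 gates in 3 libraries, among 22207 genes. The gates of a library share cells and depth, so these values describe the libraries. *Ccser1* was closest to *Emcn* (0.967), *Hdgfl3* (0.964) and 8430419K02Rik (0.962), and among the members to *Il1rapl2* (0.777). *Auts2* was closest to Gm42992 (0.949), a transcript annotated within its own span, *Tspan3* (0.948) and *Basp1* (0.944). *Dlg2* was closest to *Atg13* (0.948), *Fam214a* (0.941) and *Cmtm4* (0.941), *Macrod2* to *Rplp1* (0.969), *Sdhc* (0.963) and *Adi1* (0.963), *Il1rapl2* to *Chic1* (0.909), Gm38157 (0.897) and *Klf12* (0.894), and *Ncam2*, on 183 UMIs in all, to Gm48701, Gm11201 and Gm45356 (0.881 to 0.890).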

How the data were processed

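Cells of 3 libraries, 1 for each group, were counted from droplet 3′ sequencing. The deposited counts are raw UMI counts per gene and barcode, made by the authors with Cell Ranger (version 7.0.1 per the file headers, 4.0 with GRCm39 per the study's methods and the submitters' notes). Whether intronic reads were counted and the strand setting are not given in the sources used here. Cells with at least 200 genes and at most 5% mitochondrial UMIs were kept, 10273 to 10674 per library and 173466089 to 202361682 UMIs. No doublet caller was applied in the main values.

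Gates used raw UMIs: *Mpo* at least 5, *Klf1* at least 2, *Cd79a* at least 2, *Siglech* at least 3, and at least 1 of each gene in the pairs *Dntt* and *Flt3*, *Cd34* and *Adgrl4*. A cell could pass several gates. UMIs were summed per gate and library and divided by the gate's total. Intervals are exact Poisson for levels, Clopper-Pearson for shares and conditional binomial for ratios, at 95%. A level of 0 was bounded by 3 counts. Shares were also read in cells thinned to 2000 UMIs. With 1 library of 3 pooled mice per group no test between groups was possible. Genes were counted as different at 2-fold with 0.5 UMI added, among genes with 50 UMIs or more in the 2 libraries together. Genes named are the 6 members, gate and marker genes, at most 5 genes per direction of each list, and the 3 genes most like each member. The members and all gene lists were chosen with earlier results of these data known. Alternatives changed the filters, the gate, the UMI minimum, the averaging and doublet removal. Positions came from GENCODE M21 on GRCm38, and start sites from RefSeq on GRCm38.p6, matched by identifier and symbol. Python 3.11.15, numpy 2.4.6, scipy 1.17.1, pandas 2.3.3 and scanpy 1.11.5 were used, and the computations were tested on simulated data.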

Additional observations from a re-analysis of the deposited data

How the results depend on the processing

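No paired analysis was possible because each group was 1 library. *Ccser1*, *Dlg2* and *Il1rapl2* were lower in IR than in Control by 2-fold in every alternative run, and 3 or 4 members passed in each. IR over Control ranged from 0.137 to 0.246 for *Ccser1*, from 0.218 to 0.366 for *Dlg2*, from 0 to 0.197 for *Il1rapl2* (0 where the cells that passed no other gate held none of its IR UMIs), from 0.573 to 0.7998 for *Auts2*, from 0.553 to 0.860 for *Macrod2* and from 0.163 to 1.10 for *Ncam2* over the alternatives planned. The number of genes past 2-fold between IR and Control was 727, against 358 in cells that passed no other gate, 1121 with the mean of single-cell CPM, 1257 with at least 20 UMIs and 8540 with at least 1 UMI. Between IR+CBD and IR it was 170, against 91 in cells that passed no other gate, 524 with at least 20 UMIs and 7769 with at least 1 UMI, and no member passed, against 1 with the mean of single-cell CPM (*Il1rapl2* higher), at least 20 UMIs or at least 1 UMI (*Ncam2* higher), no *Hlf* UMI (*Dlg2* higher), 3 or more *Hlf* UMIs (*Auts2* lower) or no *Ms4a2* UMI (*Il1rapl2* higher). *Ncam2* turned direction: IR over Control was 1.10 in Hlf Mecom cells and 1.248 with no *Hlf* UMI, where IR+CBD over IR was 0.840. *Dlg2*, at 1.34 for IR+CBD over IR, fell below 1 in 2 of 10 alternatives planned (0.656 in Hlf Mecom cells, 0.675 in cells that passed no other gate) and in 3 of 8 chosen after seeing the data (0.615 to 0.659, cells with 1 or more or 3 or more *Hlf* UMIs or 3 or more stem markers). With no *Hlf* UMI this ratio was 0.942 for *Ccser1* and 0.9446 for *Il1rapl2*, and with under 5 *Mpo* UMIs 0.957 for *Ccser1*. The cause was not tested. Settings by *Hlf*, *Mpo*, *Dntt*, *Ms4a2*, *Pf4* and number of stem markers were chosen after seeing the data. The doublet alternative removed the cells with the highest Scrublet scores, 911, 856 and 844 cells, a number set by library size and not by a score cutoff. Of these, 422, 279 and 258 were Cd34 Adgrl4 cells. Depth limited *Ncam2* and *Il1rapl2*, which rested on 13 to 153 UMIs per library.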
